A study of Drosophila melanogaster with 16 samples.

Results

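The circadian clock of the fly was read here through 10 of its genes, Clk, cyc, per, tim, vri, Pdp1, cwo, dbt, jet and cry, in P1 neurons of male Drosophila melanogaster. They are 10 of the 17559 genes in the count tables and were chosen by name, as genes of the clock's feedback loops and its light input. All were found, 9 by their FlyBase symbol and dbt through the RefSeq synonym of discs overgrown (dco). P1 neurons are fruitless-expressing brain cells that promote male courtship. Every male carried UAS>stop>GFP, fruFLP and NP2631-Gal4, so that cells in which the NP2631 driver and the fruitless-driven recombinase were both active were green. Naive males (4 libraries) had been isolated and never met a female, and mated males (4 libraries) had been isolated and then paired with a female. For males of both groups the labels gave an age of 3 to 6 days and an isolation of 4 to 6 days. All were kept at 25 °C in 12 hours of light and 12 hours of dark, and gave their cells at a fixed time of day. The labels did not say how many of the 12 cells of the cluster, or how many males, went into a library, so p-values measure the spread between libraries, which may be partly technical.

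In the known mechanism, CLK and CYC are paired activators that switch on per and tim, whose proteins accumulate, enter the nucleus and shut their own activators off. In a second loop, the activators switch on vri and Pdp1, whose proteins repress and activate Clk. CWO competes for the same sites as CLK and CYC, the kinase DBT marks PER for destruction, and light acts through CRY and the F-box protein JET to remove TIM. The brain cells that keep time are lateral and dorsal neurons, and photoreceptors, many glia and the fat body also run clocks. P1 neurons are not counted among the clock neurons. With a single time of day sampled, no daily rhythm could be read from these libraries.

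The libraries held 6897560 to 13651313 counts, and the 2 sequencing runs of each were added together. Levels are given as CPM (read counts scaled to a common library size) after scaling by TMM factors, which correct for differences in composition. A gene was taken as detected in a library at 3 or more counts, which is 0.217 to 0.492 CPM depending on the library. The reads carried no molecular identifiers, so this floor covers counting error only. The pan-neuronal genes brp, elav, nSyb and Syt1 summed to 5821 to 8476 CPM in naive and 3445 to 5696 CPM in mated libraries, and fru, which defined the cells, stood at 344 to 1143 CPM in naive and 50.8 to 542 CPM in mated libraries. dsx, the other P1 marker listed, stood at 34.1 to 167 CPM in naive and 47.6 to 124 CPM in mated libraries. Both fru and dsx overlapped between the groups. The pan-neuronal sums were separate between the groups, and so were the sums of glia and fat body markers, in the other direction. The 6 glia markers summed to 30.5 to 53.8 CPM in naive and 157 to 386 CPM in mated libraries, and the 6 fat body markers to 242 to 604 and 1225 to 2939 CPM. The difference in the glia sums came mainly from Gs2, Eaat1 and wrapper. They averaged 17.3, 19.0 and 3.81 CPM in naive males against 116, 78.8 and 46.7 CPM in mated ones. alrm and moody, at lower levels, also had the higher mean in mated males. The glia gene repo hardly differed, with means of 4.11 (naive) and 4.90 CPM (mated) and a log2 fold change of 0.25 (edgeR, adjusted p = 0.994). None of these markers was at 0 in all libraries, but repo was at 0 in some libraries of each group. The sums of the photoreceptor, clock neuron, muscle and hemocyte markers overlapped between the groups. The 7 photoreceptor markers summed to 1057 to 1684 CPM in naive and 1286 to 1851 CPM in mated libraries, most of it norpA. Arr2, an arrestin of the eye, was called higher in mated males (edgeR, log2 fold change 3.79, adjusted p = 0.0196). Of the other tested ones, Arr1, ninaE and ninaC had log2 fold changes of 4.23, 2.53 and 3.59, and norpA and inaD of -0.25 and -2.49. None of these was called, but Arr1, like Arr2, was separate between the groups (0.326 to 8.69 CPM in naive and 20.7 to 117 CPM in mated libraries). The 6 clock neuron markers summed to 7.05 to 157 CPM in naive and 82.4 to 282 CPM in mated libraries. Among them the neuropeptide gene NPF was read in every library, at 3.12 to 137 CPM in naive and 14.3 to 171 CPM in mated ones, and the neuropeptide gene Pdf never exceeded 1 count. Because each library was made from an RNA pool, fewer cells of a type and less RNA per cell cannot be told apart.

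The 10 clock genes fell into very unequal classes of abundance. Pdp1 and dbt were abundant and present in every library. cwo, cyc, tim and vri were present in every library at lower levels. per, jet and cry were read mainly in some libraries, and Clk was barely read at all. In total the 8 libraries held 132629 counts of Pdp1, 12403 of dbt, 6230 of cwo, 1836 of cyc, 1438 of tim, 769 of jet, 670 of vri, 430 of per, 209 of cry and 24 of Clk. At least 3 counts were found in all 8 libraries for 6 of the genes, in 7 libraries for cry, in 6 for jet, in 5 for per and in 4 for Clk. Naive library 1 and mated library 4 had at least 3 counts of all 10 genes, and mated library 2, with 7 of the 10, had the fewest.

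**Figure D1:**
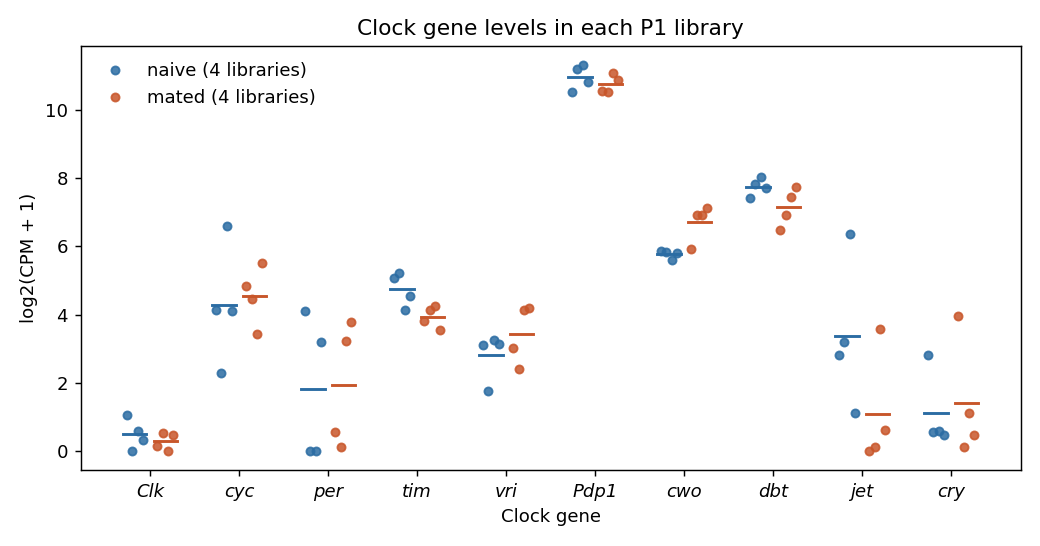
Level of each clock gene as log2(CPM + 1) in the 4 naive (blue) and 4 mated (orange) libraries, with points for libraries and short lines for group means. Pdp1 stands highest in every library, Clk never exceeds 1.09 CPM, and the naive and mated libraries are separate for cwo.

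Since a long transcript gives more reads, the genes were ordered by CPM per kilobase of exon, using the union of each gene's annotated exons. Pdp1 came first at 157 ± 34.6 CPM per kilobase (SD, n = 8 libraries), above 96.7% of the 12813 genes with a count and a known length. dbt followed at 38.3 ± 11.9, cyc at 18.0 ± 18.0 and cwo at 16.1 ± 7.35 CPM per kilobase, at percentiles 86.8, 77.4 and 75.8. The mean of jet, 9.33 ± 19.1 CPM per kilobase, rested on few libraries. tim at 2.95 ± 1.29 and vri at 1.89 ± 1.13 CPM per kilobase stood near the middle of all genes, at percentiles 50.5 and 44.7. cry and per followed at 1.54 ± 2.65 and 1.27 ± 1.44 CPM per kilobase, and Clk came last at 0.0768 ± 0.0784, at percentile 15.9. Of the 9 steps in this order, only that from Pdp1 to dbt separated genes whose ranges over the 8 libraries did not overlap (lowest Pdp1 value 121, highest dbt value 54.3 CPM per kilobase). cyc and cwo changed places from library to library, with cyc the higher in 2 of 8. With the longest annotated transcript as length, Pdp1 rose to 278 CPM per kilobase, since its 13 transcripts together cover 12138 bases and the longest of them 6855.

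**Figure D2:**
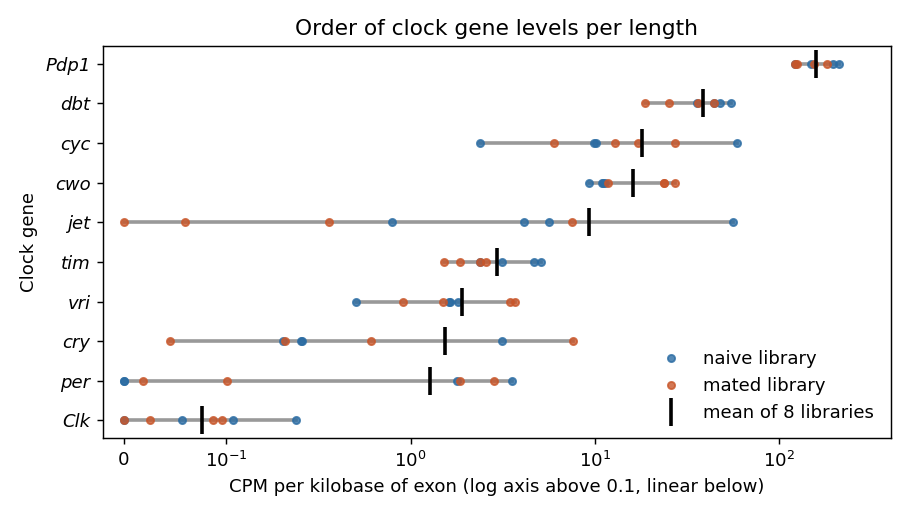
CPM per kilobase of exon for each clock gene, with 1 point per library (naive blue, mated orange), a grey bar for the range and a black tick for the mean. The axis is logarithmic above 0.1 and linear below. Pdp1 at 121 to 210 CPM per kilobase lies clear of the other genes, and the ranges of all other neighbours overlap.

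The activators came first. Clk (FBgn0023076, 3L:7763233-7775603, minus strand; all positions are those of assembly BDGP6) encodes the basic helix-loop-helix and PAS protein that gives the activator its name. Its counts were 10, 0, 3 and 2 in naive libraries 1 to 4 and 1, 5, 0 and 3 in mated libraries 1 to 4. In naive library 2 and mated library 3, 0 counts allowed up to 0.481 and 0.217 CPM. Clk was therefore at or near the floor of detection in all libraries but naive library 1, and was too low to enter the test.

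Its partner cyc (FBgn0023094, 3L:19813770-19815938, minus strand), which pairs with CLK to bind DNA, was present throughout. Its level was 16.5, 3.85, 95.1 and 16.1 CPM in naive libraries 1 to 4 and 27.9, 20.8, 9.78 and 44.2 CPM in mated libraries 1 to 4. The groups overlapped, and naive library 3 alone held 31.6% of all cyc counts. Within libraries, cyc exceeded Clk in counts 8 of 8 times. The log2 fold change, mated against naive, was -0.36 ± 0.91 (SE) and did not pass the test (edgeR, adjusted p = 0.977). It was 1.07 without naive library 3.

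The repressor genes were per and tim. per (FBgn0003068, X:2685580-2692780, plus strand), the PAS protein gene at the heart of the negative loop, was read in an on-or-off way. Naive libraries 1 to 4 had 16.1, 0, 0 and 8.11 CPM, and mated libraries 1 to 4 had 0.460, 0.0865, 8.40 and 12.9 CPM. The same split was seen in both sequencing runs, with 76 and 72 counts in naive library 1 and 0 and 0 in naive libraries 2 and 3. Both runs read the same amplified library, so their agreement bears on sequencing alone and not on the steps before it. In those 2 libraries 0 counts allowed up to 0.481 and 0.492 CPM. These limits were far under the levels of the 4 libraries with at least 10 counts of per, called here the libraries with per. Mated library 1, with 4 counts, passed the floor of 3 but was not placed among them. The 4 libraries with per were 2 naive and 2 mated, so the split did not follow mating (log2 fold change -0.15 ± 1.91, SE; edgeR, adjusted p = 0.998). The glia sums of the libraries with per were 53.8 and 51.1 CPM in naive libraries 1 and 4 and 157 and 215 CPM in mated libraries 3 and 4, against 30.5 and 47.7 CPM in naive libraries 2 and 3 and 257 and 386 CPM in mated libraries 1 and 2. Glia marker sums were thus higher in the naive libraries with per and lower in the mated libraries with per. The clock neuron sums were 157 and 19.8 CPM in naive libraries 1 and 4 and 186 and 82.4 CPM in mated libraries 3 and 4, against 16.2 and 7.05 CPM in naive libraries 2 and 3 and 127 and 282 CPM in mated libraries 1 and 2. They too were higher in the naive libraries with per, and the mated ranges overlapped. Most of the clock neuron sum was NPF, on average 40.0 of 50.0 CPM in naive and 109 of 169 CPM in mated libraries. The part of either list in the level of per was not tested. In the group of 709 tested genes nearest per in mean level, the tenth with the lowest levels, the SD of log2(CPM + 1) over libraries had a median of 1.40, and that of per was 1.85, above 91.3% of them.

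tim (FBgn0014396, 2L:3493986-3508119, minus strand), whose protein stabilises PER and is destroyed in light, was steadier. In naive libraries 1 to 4 it stood at 32.9, 35.9, 16.7 and 22.1 CPM, and in mated libraries 1 to 4 at 13.01, 16.7, 18.1 and 10.6 CPM. The mated libraries lay in the lower part of the range, and the groups overlapped only where mated library 3 exceeded naive library 3. The means were 26.9 ± 9.01 and 14.6 ± 3.41 CPM (SD, n = 4), and the log2 fold change, -0.88 ± 0.80 (SE), missed the threshold (edgeR, adjusted p = 0.807). With the title number (described with cwo) as a factor it was -0.10 (edgeR, adjusted p = 0.987). Where per was read at more than 10 counts, the ratio of tim to per per kilobase was 1.32, 1.76, 1.39 and 0.53. Of the tim exons, 9.89% of the bases overlap exons of other genes, a long non-coding RNA on the other strand and a snoRNA, so part of its count may belong to these. The SD of log2(CPM + 1) of tim, 0.58, was below all but 3.10% of the 709 tested genes of like level, whose median was 1.29. Neither spread was particular to its gene. Each against genes of its own level, jet stood at percentile 95.2 and vri at 4.37. Near the middle were cyc, dbt and cwo, at percentiles 50.5, 53.0 and 49.4.

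The bZIP genes of the second loop came next. vri (FBgn0016076, 2L:5288944-5311223, plus strand) encodes the bZIP repressor of Clk. Naive libraries 1 to 4 had 7.71, 2.40, 8.53 and 7.72 CPM, and mated libraries 1 to 4 had 7.14, 4.32, 16.4 and 17.4 CPM. Mated libraries 3 and 4 were above every naive library, while mated libraries 1 and 2 were within the naive range. The log2 fold change was 0.78 ± 1.21 (SE) and did not pass (edgeR, adjusted p = 0.932).

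Pdp1 (FBgn0016694, 3L:7811458-7867369, minus strand) encodes the bZIP activator that opposes VRI at Clk, and also isoforms with roles outside the clock. Levels of 1479, 2360.3, 2546 and 1806 CPM in naive libraries 1 to 4 faced 1517, 1469, 2191 and 1876 CPM in mated libraries 1 to 4. The groups overlapped almost fully, and the highest library was 1.73 times the lowest. This was the narrowest range of the 6 clock genes that reached 3 counts in every library, with 2.91 for dbt, 2.92 for cwo, 3.38 for tim, 7.26 for vri and 24.7 for cyc. Genes with higher counts vary less for counting reasons alone, and against the 709 tested genes in the tenth with the highest levels, the SD of log2(CPM + 1) of Pdp1, 0.31, stood at percentile 18.2. Per kilobase, Pdp1 exceeded vri 42.0 to 383 times within a library. Its log2 fold change was -0.22 ± 0.23 (SE; edgeR adjusted p = 0.866). The counts cover the whole gene, so the isoform tied to the clock could not be told from the others.

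cwo (FBgn0259938, 3R:10388258-10400752, plus strand), which encodes a helix-loop-helix and Orange-domain protein that competes with CLK and CYC at their sites, was the clock gene whose groups were apart. Naive libraries 1 to 4 had 57.5, 56.3, 47.5 and 55.5 CPM, and mated libraries 1 to 4 had 59.9, 120.4, 119.9 and 139 CPM. All 4 mated libraries were above all 4 naive ones, but mated library 1 exceeded the highest naive library by little. The means were 54.2 ± 4.52 and 109.8 ± 34.5 CPM (SD, n = 4). The log2 fold change of 1.02 ± 0.38 (SE) had an unadjusted p of 0.0182 and did not pass after adjustment over 7090 genes (edgeR, adjusted p = 0.320). Over the alternatives the adjusted p ran from 0.182 to 0.763, and the fold change stayed positive in all of them. Groups that did not overlap were found for 7.66% of all tested genes, and for 4.26% with the mated libraries higher. cwo was 1 of 8 tested clock genes, and a share of this size is no result about the clock genes as a set. The glia and fat body sums given above were likewise separate between the groups and higher in mated males, as were the photoreceptor genes Arr1 and Arr2. The glia gene repo did not share this separation. In mated libraries 1 to 4 the glia sums were 257, 386, 157 and 215 CPM and the fat body sums 2939, 2163, 1225 and 1616 CPM. The part of these markers in the level of cwo was not tested. A number in the sample titles, whose meaning the labels do not give, was shared by both groups only in naive library 3 and mated libraries 1 and 3, where cwo had 47.5, 59.9 and 119.9 CPM. With this number as a factor, the log2 fold change of cwo was 0.92 (edgeR, adjusted p = 0.763).

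The genes that act on the clock proteins were next. dbt (FBgn0002413, 3R:31054085-31061210, minus strand) encodes the casein kinase that phosphorylates PER. The 4 naive libraries, in order, had 171, 228, 259.7 and 211 CPM, and mated libraries 1 to 4 had 89.2, 120.1, 174 and 212 CPM. Mated libraries 1 and 2 lay below every naive library, and the other two within the naive range. The means were 217 ± 37.1 and 149 ± 54.9 CPM (SD, n = 4), and the log2 fold change, -0.54 ± 0.32 (SE), missed the threshold (edgeR, adjusted p = 0.611). The neuron marker sums were also lowest in mated libraries 2 and 1 (3445 and 3868 CPM), and their part in the level of dbt was not tested.

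jet (FBgn0031652, 2L:4948206-4949784, minus strand) encodes the F-box protein that directs light-dependent destruction of TIM. Naive libraries 1 to 4 had 5.97, 8.18, 81.7 and 1.16 CPM, and mated libraries 1 to 4 had 0, 0.0865, 10.9 and 0.525 CPM. Naive library 3 alone held 64.8% of all jet counts, and mated library 3 nearly all of those in its group. The log2 fold change was -3.05 ± 1.79 (SE) and did not pass (edgeR, adjusted p = 0.611). It was -0.81 without naive library 3 and -6.82 without mated library 3, with adjusted p of 0.986 and 0.169 (edgeR). The exons of jet overlap those of betaggt-I, on the other strand, over 8.19% of their length.

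cry (FBgn0025680, 3R:19212154-19215442, plus strand) encodes the blue-light receptor that binds TIM and triggers its loss. There were 55, 3, 3 and 3 counts in naive libraries 1 to 4 and 125, 1, 16 and 3 in mated libraries 1 to 4, so that cry was read clearly in 1 naive and 2 mated libraries and at or under the floor in the other 5. It was too low to enter the test. When all genes with a count were tested, the log2 fold change was 1.08 ± 2.02 (SE) for cry (edgeR, adjusted p = 0.899) and -0.95 ± 1.69 (SE) for Clk (edgeR, adjusted p = 0.888). Exons of vib on the other strand and of a long non-coding RNA overlap 17.8% of the cry exon bases, and the use of strand in counting is not given, so low cry counts cannot be assigned with certainty. The highest library was naive library 1 for per, naive library 3 for both jet and cyc, and mated library 1 for cry. Naive library 1 was also the highest naive library for cry (5.97 CPM), and mated library 3, with per at 8.40 CPM, was the highest mated library for jet (10.9 CPM).

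**Figure D3:**
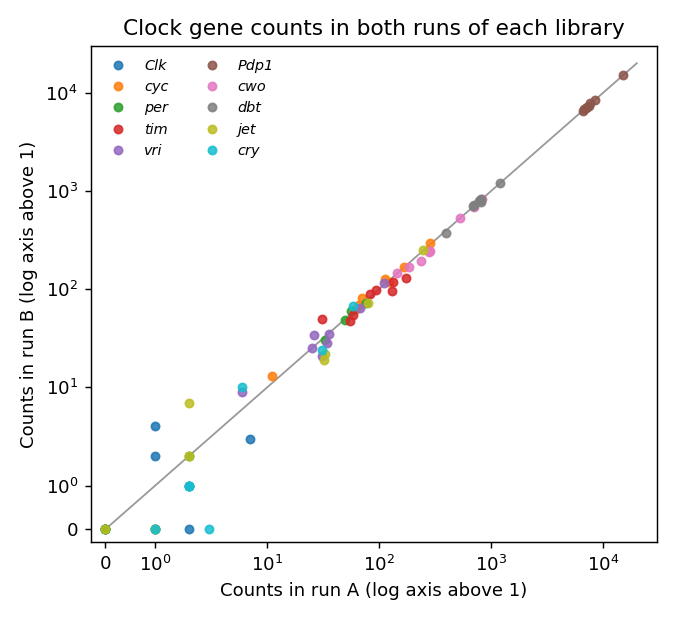
Counts of each clock gene in the 2 sequencing runs of each library, 1 point per gene and library, with the line of equality. Axes are logarithmic above 1. Most points lie along the line, as per in naive library 1 (76 and 72 counts), and some lie off it, as tim in the same library (173 and 130 counts).

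The question of the study, which genes differ between mated and naive males, was then asked of the 8 clock genes that could be tested. None passed at an adjusted p of 0.05 in edgeR's quasi-likelihood test, beside 0.381% of all 7090 tested genes (27 genes, 0.339% higher and 0.0423% lower in mated males). cwo alone was under an unadjusted p of 0.05, beside 10.6% of all tested genes, and 5.54% with higher levels in mated males. DESeq2 called 0 of the 8 as well, beside 233 of all 7090 tested genes. In DESeq2 cwo and jet were under an unadjusted p of 0.05, beside 942 of the 7090. The median log2 fold change of the 8 was -0.29, beside -0.0092 for all tested genes, with 6 below 0 and 2, vri and cwo, above. With library-size scaling, which moved the median of all genes to 0.17, the median of the 8 was -0.12. It ran from -0.20 without mated library 2 to -0.76 without mated library 4, and was -0.47 and -0.54 without naive libraries 1 and 2. The standard errors, from 0.23 for Pdp1 to 1.91 for per, differed widely between genes.

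**Figure D4:**
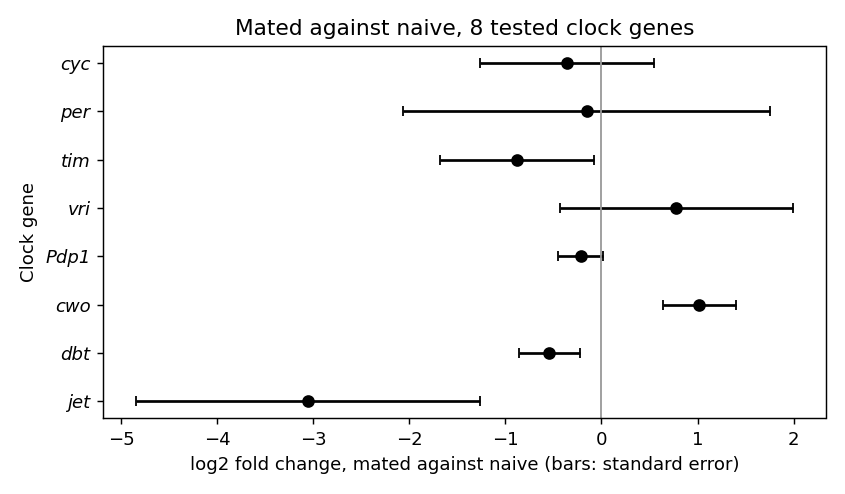
Log2 fold change, mated against naive, with its standard error for the 8 tested clock genes. Pdp1 (-0.22 ± 0.23), dbt (-0.54 ± 0.32) and cwo (1.02 ± 0.38) have the shortest bars, those of jet and per are the longest, and none of the 8 passed after adjustment.

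per, tim, vri, Pdp1 and cwo are all known targets of CLK and CYC, so their levels were compared across the 8 libraries in 10 pairs, as log2(CPM + 1). No pair passed after adjustment over the 10 (exact permutation tests over all 40320 pairings, two-sided, lowest adjusted p = 0.528 for Pearson's r and 0.545 for Spearman's rho). The highest correlation was that of per with vri, at r = 0.68 (exact permutation p = 0.0825, adjusted p = 0.528) and rho = 0.51 (exact permutation p = 0.198, adjusted p = 0.545). Without the 2 libraries farthest from the median of per it was 0.68. The lowest r was that of tim with vri, at r = -0.60 (exact permutation p = 0.111, adjusted p = 0.528) and rho = -0.40 (exact permutation p = 0.327, adjusted p = 0.545), and without the 2 libraries farthest from the median of tim it was -0.34. The lowest rho was that of tim with cwo, at rho = -0.60 (exact permutation p = 0.132, adjusted p = 0.545) and r = -0.52 (exact permutation p = 0.176, adjusted p = 0.528), with r = -0.39 without the same 2 libraries. per and tim, partners in the repressor complex, gave r = 0.0048 (exact permutation p = 0.989, adjusted p = 0.989) and rho = -0.096 (exact permutation p = 0.825, adjusted p = 0.825), and r = -0.010 without the 2 farthest libraries. Measured as deviations from the group means, the r of tim with cwo went from -0.52 to 0.20. The title numbers held at most 3 libraries each, too few for a correlation within a number.

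Genes outside the clock were also ranked by likeness of pattern over the 8 libraries, among 7082 tested genes. Closest to per were Ube3a (r = 0.99), CG30105 (r = 0.98) and CG11456 (r = 0.96), and closest to tim were FBgn0011764, Pgm2a and CG1492 (r = 0.94, 0.94 and 0.93). For Clk the highest were lncRNA:CR43803, Cth and CG14442 (r = 0.91, 0.89 and 0.87), on no more than 10 counts of Clk per library. With 8 points and 7082 genes such values are a description. Ube3a, which encodes a ubiquitin ligase, ran from 0 to 22.3 CPM over the same libraries.

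Other genes of the clock pathway gave the setting of these values. Of 70 genes listed from general knowledge 68 were matched, with slmb and dys not analysed here, and 58 were tested. None of the 58 passed in edgeR's quasi-likelihood test, and 12 were under an unadjusted p of 0.05, 11 of them lower in mated males, beside 10.6% of all tested genes in either direction and 5.02% lower. The log2 fold change was below 0 for 43 of the 58, beside 50.5% of all tested genes, and their median was -0.29, beside -0.0092. The 12 became 6 of 58 without mated library 1, 8 of 60 without mated library 2 and 8 of 61 without naive library 3. Among all tested genes the counts were then 600 of 7423, 567 of 7403 and 664 of 7562. With library-size scaling it was 7 of 58 and with the title number as a factor 0 of 58, beside 703 and 452 of 7090. The fit with that number leaves 2 residual degrees of freedom, which limits what its 0 can show. The count also rose, to 15 of 61 without mated library 4 and 14 of 58 without naive library 1. All tested genes then gave 967 of 7522 and 787 of 7443. It was 13 of 67 with no filter, beside 1833 of 13028, and 12 of 58 with DESeq2, beside 942 of 7090. After adjustment DESeq2 called 2 of the 58, tws and sss, beside 233 of all 7090 tested genes. The neuron marker sums, lower in every mated library than in any naive one, moved with this lean, and their part in it was not tested.

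All 12 kinases and phosphatases of clock proteins were read in every library, 10 of them with a log2 fold change below 0. At the lower end was tws, a regulatory subunit of protein phosphatase 2A that acts on PER, with naive libraries at 195 to 240.3 CPM and mated libraries at 54.0 to 121.9 CPM. Its log2 fold change was -1.19 ± 0.32 (SE; edgeR adjusted p = 0.151; DESeq2, adjusted p = 0.0242). At the upper end was CkIIalpha, the catalytic subunit of casein kinase 2, at 0.35 ± 0.27 (SE; edgeR adjusted p = 0.729). Of the genes listed for turnover of clock proteins, 6 were tested, from Cul1, a scaffold of ubiquitin ligases, at -1.01 ± 0.51 to CSN5, a COP9 signalosome subunit, at 1.63 ± 1.14 (SE; edgeR adjusted p = 0.527 and 0.696). The 3 genes for translation of per RNA were read in every library. They ran from tyf, which activates that translation, at -0.84 ± 0.32, to its partner Atx2 at -0.015 ± 0.30 (SE; edgeR adjusted p = 0.332 and 0.9998).

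The transcription cofactors ran from nej, the CBP acetyltransferase, at -0.93 ± 0.35, to brm, the Brahma ATPase, at 0.049 ± 0.50 (SE; edgeR adjusted p = 0.331 and 0.996). Of the 6 genes listed under light input 3 were tested, from nocte at -0.65 ± 0.27 to the opsin gene Rh7 at 0.49 ± 1.25 (SE, edgeR adjusted p = 0.405 and 0.977). nocte is needed for entrainment by temperature, so this range is not of light input alone. Of 25 output and sleep genes 22 were tested. At the lower end was sss, the sleep gene named qvr in FlyBase, with naive libraries at 858 to 1101 CPM and mated libraries at 449 to 665 CPM and a difference on the log2 scale of -0.76 ± 0.22 (SE; edgeR adjusted p = 0.169; DESeq2, adjusted p = 0.0292). At the upper end was Pdfr, the receptor of the clock neuropeptide PDF, whose naive libraries had 2.30 to 9.62 CPM and mated libraries 3.45 to 67.4 CPM (log2 2.51 ± 1.005, SE; edgeR, adjusted p = 0.370). Among relatives of the clock genes, Met, a receptor of juvenile hormone, was at -0.0032 ± 0.42, and timeout, the paralog of tim, at -2.02 ± 1.47 (SE; edgeR adjusted p = 0.9998 and 0.712). Groups that did not overlap were found for 5 of the 58, tws, wdb, sss, dysc and sima, beside 7.66% of all tested genes, and all 5 were lower in mated males, beside 3.4%. wdb, dysc and sima were named after their values were seen.

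**Figure D5:**
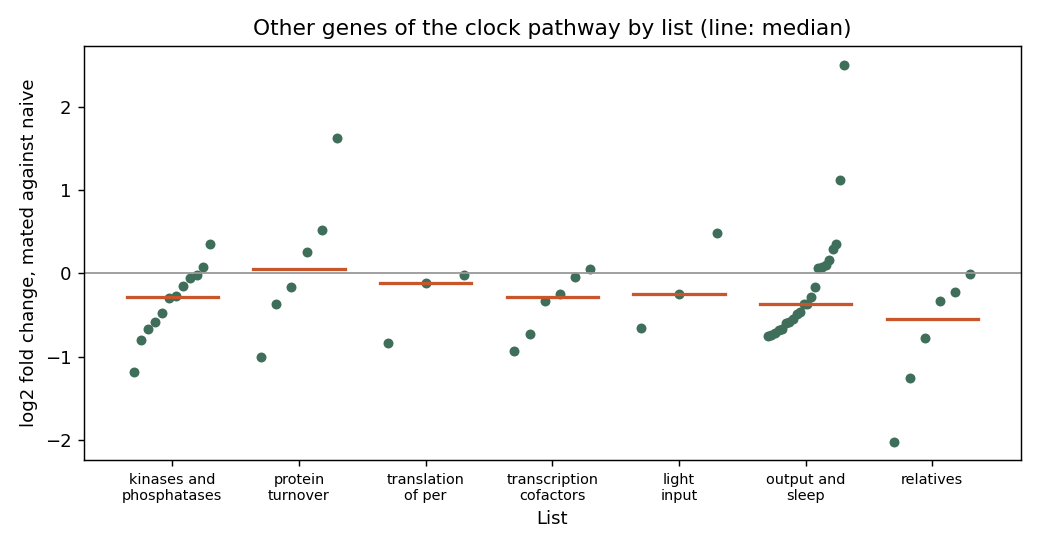
Log2 fold change, mated against naive, of the 58 tested genes of the clock pathway other than the 10 clock genes, by list, with 1 point per gene and a line at the median of each list. Most points lie below 0 (43 of 58), from timeout at -2.02 to Pdfr at 2.51, and none passed in edgeR.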

How the data were processed

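The authors deposited raw read counts per gene for 8 libraries, as 2 sequencing runs and their sum, and the sum equalled the runs for every gene. Per the labels' protocols, cells were drawn into a patch pipette, and cDNA was amplified for 15 rounds, sheared to 200 bp and amplified for 12 more. The submitters' processing notes name cutadapt, HISAT2 2.2.1 and featureCounts 1.6.2 and the builds dm6 and BDGP6. Which annotation was counted, and whether by strand, is not given in the sources used here. Positions, exon lengths and overlaps came from Ensembl release 115 for BDGP6, and names from the supplied FlyBase and RefSeq tables (17253 of 17559 identifiers). Rows without a name were kept.

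Groups followed the treatment label. Mated and naive libraries were compared with edgeR 4.0.16 in R 4.3.3 (filterByExpr, TMM, glmQLFit with robust estimation, glmQLFTest, group as the only term), with Benjamini-Hochberg adjustment over 7090 genes and a threshold of 0.05. Standard errors were taken as the absolute log2 fold change over the root of F. The code was tested on simulated data. DESeq2 1.42.0, other scaling and filters, the A run alone, the title number and leaving out each library were alternatives. Correlations used a pseudocount of 1 CPM and exact permutation.

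The 10 clock genes, the pathway lists and the markers were chosen with earlier results of these data known. Pathway genes named in the text are the highest and lowest fold change of each list, and genes like per, tim and Clk are the 3 with the highest r.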

Additional observations from a re-analysis of the deposited data

Results flagged for a closer look

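In 6 of 20 groups of 4 libraries (10 genes in 2 groups), 1 library lay far from the other 3 relative to the range of the group. Chance flags about 1 in 20 such groups when values are normally spread, and CPM values are skewed. In naive library 3, cyc reached 95.1 CPM, beside 3.85 to 16.5 CPM in the others, and jet 81.7 CPM, beside 1.16 to 8.18 CPM. In naive library 2, vri was at 2.40 CPM, beside 7.71 to 8.53 CPM. In mated library 3, jet was at 10.9 CPM, beside 0 to 0.525 CPM. cry reached 5.97 CPM in naive library 1, beside 0.386 to 0.492 CPM, and 14.4 CPM in mated library 1, beside 0.0865 to 1.16 CPM.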

How the results depend on the processing

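No clock gene passed the threshold under any of the 15 alternatives (edgeR and DESeq2), with lowest adjusted p over the genes of 0.169 without mated library 3 to 0.702 with the title number as a factor. The count of all tested genes past the threshold, 27, was 46 with library-size scaling, 233 with DESeq2, 56 with no filter, 64 with at least 10 counts in every library and 0 with the title number as a factor (452 at an unadjusted p under 0.05). It ran from 6 (without mated library 1) to 53 (without mated library 3) when 1 library was left out, and leaving out mated library 4 alone moved it by less than 1.5 times. Of the other pathway genes, DESeq2 called 2, and 0 passed in any fit without a library. The log2 fold change of per, -0.15, was 8.31 with the title number as a factor, which leaves 2 residual degrees of freedom, and those of cyc, tim, vri, Pdp1, dbt and jet were -2.34, -0.10, 0.47, -0.46, -0.98 and -3.89. That of per ran from -1.01 to 1.002 without a library, and that of cyc, -0.36, from -0.76 to 1.07. With deviations from the group means the r of tim with Pdp1, 0.12, was -0.22, that of tim with cwo, -0.52, was 0.20 and that of Pdp1 with cwo, -0.19, was 0.17, and library-size scaling gave -0.23 for tim with Pdp1. Without a library, r ran from -0.33 to 0.35 for per with tim, from -0.49 to 0.0032 for per with Pdp1, from -0.20 to 0.44 for tim with Pdp1, from -0.11 to 0.55 for vri with Pdp1 and from -0.37 to 0.076 for Pdp1 with cwo. Pdp1 per kilobase moved from 157 to 278 CPM with the longest transcript. The causes were not tested. No paired analysis was possible because the groups share only 1 title number, in 1 naive and 2 mated libraries, and the fits with that number as a factor are the nearest to a block. Only 4 of 8 libraries reached 10 counts of per and of jet, 3 of cry and 1 of Clk, which limits what can be said of their differences.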
